A study of Mus musculus with 12 samples.

Results

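The subject here was the change shared by the lncRNA5251 knockdown lineage and the lncRNA5251 overexpression lineage in the mouse testis. The members were the 6 libraries of both virus lineages, set against the 6 libraries of both controls with the viral vector as a term, so that all 12 libraries of the series took part. LncRNA5251 is a long non-coding RNA whose level the study raised or lowered with lentivirus in the testes of male mice, and RNA was taken from the testes of the F1 sons. The aim of the knockdown virus is opposite to that of the overexpression virus. The pooled comparison averages the difference from control over both vectors. It can be carried by a single vector and does not require the same direction in each lineage. A shared change is asked for only where both within-vector comparisons had to differ in the same direction.

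Polyadenylated RNA of whole testis was sequenced in 4 groups of 3 libraries. In the knockdown group (F1_5251KD in the labels) the sires had received 3 short hairpins against lncRNA5251 in the LV3 lentivirus, and 3NC was the LV3 control with an unrelated hairpin. In the overexpression group (F1_5251OV) the sires had received lncRNA5251 in the LV5 lentivirus, and 5NC was the LV5 control. The sires were ICR males (the labels spell the strain IRC) injected at 4 weeks of age and mated at 9 weeks with untreated females, and sons were collected at 8 weeks, so every group, controls included, descended from a virus-injected male. The sons themselves were not injected according to the study's methods, whereas the design text of the labels speaks of F1 testes as the transfected tissue. The number of sires, litters and animals behind the libraries was not given, hence p-values measure the spread between libraries, which may be technical.

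In the seminiferous tubule, spermatogonia divide and enter meiosis, spermatocytes become round spermatids, and these elongate into sperm, while Sertoli cells nurse them and join into the blood-testis barrier. Leydig cells between the tubules convert cholesterol to testosterone through a chain of steroidogenic enzymes, and in the mouse they also make several tissue kallikreins, which are secreted serine proteases. The epididymis, attached to the testis, secretes its own set of proteins onto sperm.

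The 4 hairpin sequences below were delivered to the sires and are shown since they define the knockdown arm. Each is written 5′ to 3′. The 3 knockdown hairpins each matched 1 GENCODE vM21 transcript over all their bases, that of Purb (purine-rich element binding protein B), a gene of 1 exon on the minus strand of chromosome 11 (GRCm38), and the control hairpin matched none. All 3 matches lay in the 3′ untranslated part, at chr11:6468416-6468436, chr11:6467969-6467989 and chr11:6468248-6468268.
Control hairpin Sh3NC: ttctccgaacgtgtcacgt
Knockdown hairpin 1: gctgggacttaatgtccttct
Knockdown hairpin 2: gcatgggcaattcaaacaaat
Knockdown hairpin 3: gcttattatgcatcgtaaacc

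LncRNA5251 had no value of its own here, and reads at Purb were the only measure that touched the targeted sequence. Purb stood at 77.04, 98.2 and 93.8 CPM (reads of a gene scaled to a fixed library size) in 3NC, 84.3, 79.0 and 79.7 in the knockdown group, 76.9, 95.2 and 87.9 in 5NC, and 76.9, 79.1 and 92.7 in the overexpression group. The groups overlapped throughout. The lineages differed from the controls by -0.10 on the log2 scale within vectors, and a two-sided exact permutation test gave p = 0.24 (400 exchanges of libraries, which can give 0.005 at the smallest). A difference at Purb averaged over both lineages was thus not detectable. A fall under knockdown and a rise under overexpression would cancel in that average. The test therefore cannot decide whether either virus changed the reads at Purb, and no test of a single lineage is given here. Reads of Purb and of lncRNA5251 cannot be told apart here.

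Library totals ran from 12719699 to 15771655 estimated reads. In 2 libraries, 3NC replicate 2 and knockdown replicate 1, the leukocyte gene Ptprc stood at 94.8 and 71.7 CPM against at most 6.91 CPM in the other 10, and the summed level of 18 macrophage genes was 1032 and 1225 CPM. Each arm holds 1 of these libraries. Defining testis markers were present in all libraries, such as Prm2 (protamine 2, which packs sperm DNA) at 3947 to 5720 CPM and Insl3 (the Leydig cell hormone insulin-like 3) at 394 to 742 CPM.

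No gene passed an adjusted p of 0.05 in the pooled comparison (0 of 16388 tested, 0%, edgeR's quasi-likelihood test with Benjamini-Hochberg adjustment). The smallest adjusted p was 0.0637, and 21 genes (0.128%) lay under an adjusted p of 0.1. Before adjustment, 2369 genes (14.5%) lay under a p of 0.05, 1255 higher (7.66%) and 1114 lower (6.8%) in the lineages. DESeq2 called 254 genes (138 higher and 116 lower), limma called 7 on log2 CPM and 3 or 4 on the RPKM values, so the count rested on the tool, and no gene below is described as changed. It also rested on single libraries. Of the 12 leading genes described next, 12 passed without 3NC replicate 3, 10 without knockdown replicate 1 (not Edar and Zfp661), and 10 without both knockdown replicate 1 and 3NC replicate 2 (not Arid3a and Zfp661). Each of these counts includes AY761185, which passed the filter on low counts through the controls alone, so its passes support nothing. Genes are named as those with the smallest p, and their order is a description.

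The 2 within-vector comparisons share no library, so they can be set side by side. No gene passed when both had to differ in the same direction (0%, taking the larger of the 2 p-values, adjusted over 16388 genes). Unadjusted, 187 genes (1.14%) reached p under 0.05 in both vectors with the same sign, 111 higher (0.677%) and 76 lower (0.464%), and 31 (0.189%) did so with opposite signs. DESeq2 called 2 shared genes, both higher. By position alone, 304 genes (1.86%) had the 3 lineage libraries beyond the 3 controls in the same direction in each vector, 166 above (1.01%) and 138 below (0.842%). Another 78 (0.476%) did so in opposite directions, 37 with knockdown above and overexpression below (0.226%) and 41 the other way (0.25%). Scaled as RPKM the opposite set split 55 to 33.

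A stricter description puts all 12 libraries on 1 axis. In 93 genes (0.567%) the 6 lineage libraries did not overlap the 6 controls, with 55 above (0.336%) and 38 below (0.232%). Under RPKM scaling there were 99, 48 above and 51 below, so the share above depended on the scaling.

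**Figure D1:**
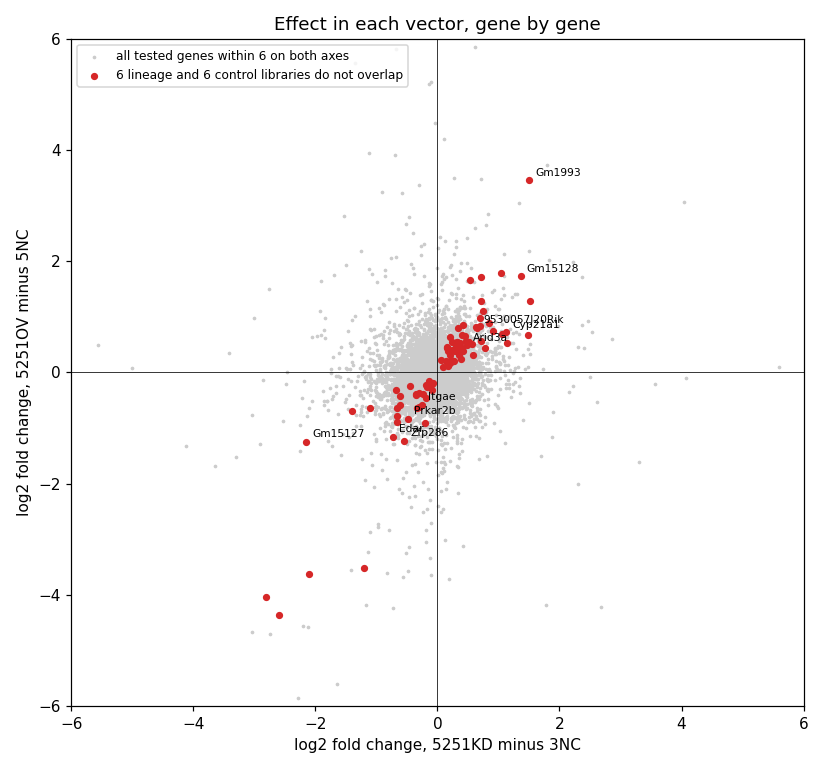
Each point is a tested gene, with the log2 fold change of the knockdown group over 3NC on the horizontal axis and of the overexpression group over 5NC on the vertical axis, and red points are genes whose 6 lineage and 6 control libraries did not overlap. Gm1993 lies at 1.5 and 3.45, the red points fall in the lower left and upper right parts as their selection requires, and genes beyond 6 on either axis are not drawn.

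9530057J20Rik had the smallest p of all genes and lay higher in the lineages. This protein-coding gene on chromosome 8 (chr8:19903378-19935330, GRCm38.p6) stood at 510, 387 and 568 CPM in 3NC and 415, 441 and 413 CPM in 5NC. In the lineages it stood at 783, 722 and 793 CPM in the knockdown group and 834, 761 and 619 CPM in the overexpression group. All 6 lineage libraries lay above all 6 controls, with the lowest of them, in the overexpression group, near the highest control. The log2 difference was 0.73 ± 0.10 (SE, n = 6 and 6), with 0.65 ± 0.14 in the LV3 pair and 0.80 ± 0.14 in the LV5 pair and an adjusted p of 0.0637. It was called in 12 of 27 alternative fits.

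Gm1993 showed the widest separation among the leading higher genes. It lies on the X chromosome (chrX:25548501-25570449) and has a predicted-gene name. Whether it shares reads with near-identical copies was not tested, so its count is uncertain. Gm1993 had 1.39, 1.24 and 2.63 CPM in 3NC and 4.05, 4.79 and 6.08 CPM in the knockdown group. It had 1.5, 1.27 and 1.29 CPM in 5NC and 16.5, 12.99 and 15.2 CPM in the overexpression group. No library of a lineage reached down to a control, and the overexpression libraries lay well above the knockdown ones. The log2 difference was 2.48 ± 0.35 (adjusted p = 0.0637), made of 1.5 ± 0.27 in the LV3 pair and 3.45 ± 0.29 in the LV5 pair. The difference between these effects had an adjusted p of 0.239, so it did not pass.

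Arid3a, an AT-rich DNA-binding protein, and Cyp21a1, the steroid 21-hydroxylase that makes corticosteroid precursors, came next among the higher genes. Arid3a stood at 27.4 to 30.9 CPM in 3NC, 37.2 to 42.5 in the knockdown group, 20.9 to 26.3 in 5NC and 31.5 to 33.7 in the overexpression group. Its effect was nearly the same in the LV3 pair as in the LV5 pair (0.48 in each), with a pooled value of 0.48 ± 0.07 (adjusted p = 0.0637). Cyp21a1 was level across the controls, at 5.82, 5.59 and 5.67 CPM in 3NC and 5.18, 5.63 and 4.58 CPM in 5NC. It reached 14.98, 13.6 and 8.85 CPM in the knockdown group and 8.94, 8.13 and 8.25 CPM in the overexpression group. The lowest lineage library therefore lay above the highest control, and the log2 difference was 0.93 ± 0.14 (adjusted p = 0.0637).

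Gm15128, an X-linked gene, and Gm46310, which had no coordinates in the annotation used, completed the 6 leading higher genes. Gm15128 stood at 1.12 to 2.74 CPM in the 6 controls and 3.68 to 8.92 CPM in the 6 lineage libraries, a log2 difference of 1.54 ± 0.25 (adjusted p = 0.0713). Gm46310 stood at 20.3 to 27.4 CPM against 30.3 to 40.01 CPM, a difference of 0.55 ± 0.09 (adjusted p = 0.0713). In both genes the arms did not overlap. Tmem79, a membrane protein known from the skin barrier, and Il17rb, a receptor subunit for interleukins of the IL-17 family, were among the 6 genes with the smallest larger p. Tmem79 had 4.58 to 7.29 CPM in the controls and 8.01 to 11.6 CPM in the lineages (0.70 in LV3, 0.84 in LV5). Il17rb had 2.11 to 2.67 and 3.35 to 5.06 CPM (0.84 in LV3, 0.88 in LV5). Neither gene overlapped between arms, and the larger p was 0.00239 and 0.00211.

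Among the lower genes, Prkar2b and Zfp286 had the smallest p. Prkar2b encodes a regulatory subunit of protein kinase A, which holds the kinase inactive until cAMP binds. It stood at 16.3, 16.9 and 17.2 CPM in 3NC and 12.2, 11.5 and 12.2 CPM in the knockdown group. In the LV5 pair it stood at 20.1, 23.4 and 23.3 CPM in 5NC and 10.2, 13.1 and 14.1 CPM in the overexpression group. Every lineage library lay below every control. The log2 difference was -0.66 ± 0.10 (adjusted p = 0.0637), with -0.49 in LV3 and -0.84 in LV5.

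Zfp286, a zinc finger protein, had 12.6, 11.8 and 11.1 CPM in 3NC and 8.09, 7.05 and 9.25 CPM in the knockdown group. It had 15.5, 15.8 and 13.6 CPM in 5NC and 6.58, 5.93 and 6.58 CPM in the overexpression group, again with no overlap between the arms. The log2 difference was -0.89 ± 0.14 (adjusted p = 0.0637), with -0.54 ± 0.13 in LV3 and -1.23 ± 0.14 in LV5. Zfp661, another zinc finger gene, was lower within each vector (-0.33 and -0.71) but overexpression replicate 3, at 18.5 CPM, lay just above the lowest controls of 3NC at 18.2 CPM (pooled -0.52 ± 0.09, adjusted p = 0.0806).

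Itgae, the integrin alpha E chain that binds E-cadherin, stood at 66.4, 67.4 and 66.7 CPM in 3NC and 57.4, 53.7 and 56.7 CPM in the knockdown group. In 5NC it stood at 70.4, 70.1 and 73.7 CPM and in the overexpression group at 45.7, 52.1 and 44.8 CPM. The highest lineage library, at 57.4 CPM, lay below the lowest control, at 66.4 CPM, and the overexpression libraries spread the most. Its log2 difference was -0.42 ± 0.07 (adjusted p = 0.0713). Edar, the ectodysplasin receptor, had 2.05 to 2.88 CPM in the controls and 1.07 to 1.69 CPM in the lineages, a difference of -0.94 ± 0.17 (adjusted p = 0.0806). AY761185 on chromosome 8 passed the filter on low counts through the controls alone and rested on few reads, 259 over the 6 controls and 4 over the 6 lineage libraries. It ranged from 0.473 to 10.2 CPM in the controls and from 0 to 0.190 CPM in the lineages (-5.55 ± 0.97, adjusted p = 0.0806). The filter fixed that direction, so its p and its rank support nothing.

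**Figure D2:**
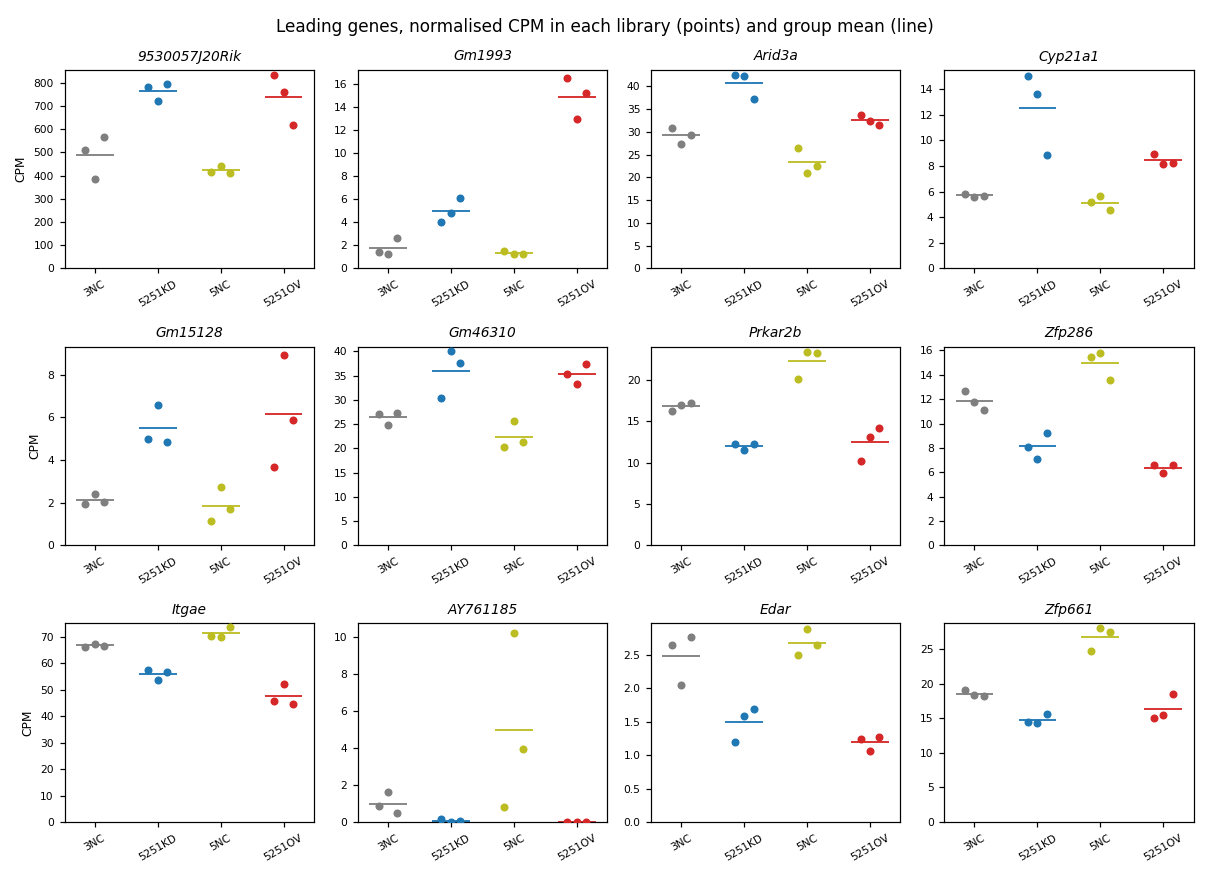
Each panel gives 1 of the 12 leading genes, with normalised CPM on a linear axis from 0, a point for each library and a line at each group mean. In 11 of the 12 panels the knockdown and overexpression points lie wholly on one side of the 3NC and 5NC points, and Zfp661 is the exception.

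The kallikrein genes of the Klk1b cluster on chromosome 7 mostly had lower values in the lineages. Of 14 listed genes 12 were tested, all 12 had a negative pooled log2 difference and 9 had one sign in both vectors, 6 were lower at an unadjusted p under 0.05 and 0 higher, beside 6.8% lower over all genes. Counts of the lists and neighbouring genes below are to be read against the same 7.66% higher and 6.8% lower over all genes. These shares are of the fit with all libraries, so counts under other settings are not to be read against them. The median was -0.48, beside -0.01 over all genes, and it was -0.35 in LV3 and -0.69 in LV5. The other 3 were higher in the knockdown group than in 3NC and lower in the overexpression group than in 5NC, with 0.34 and -0.46 for Klk1b9, 0.12 and -0.45 for Klk1b4 and 0.32 and -1.28 for Klk1b5. For Klk1b5 the difference between these effects had an unadjusted p of 0.00213 and an adjusted p of 0.581 (edgeR's quasi-likelihood test). The list was drawn up with earlier results of these data known, so its direction is not independent evidence. In whole testis, fewer cells of a type and less RNA per cell cannot be told apart.

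Klk1b21 carried the pattern most plainly. It stood at 43.9 and 38.3 CPM in 3NC replicates 1 and 2 but at 4.73 in 3NC replicate 3, and at 3.67, 1.73 and 3.38 CPM in the knockdown group. In the LV5 pair it stood at 44.0, 46.0 and 43.5 CPM in 5NC and 9.47, 16.3 and 20.6 CPM in the overexpression group. Hence 5 of the 6 controls held 38.3 to 46.0 CPM, while 3NC replicate 3 stood among the lineage libraries. The log2 difference was -2.33 ± 0.50 (adjusted p = 0.125), and without 3NC replicate 3 it was -2.47 with an adjusted p of 0.0283. The library left out there was the only control among the lineages, so that pass supports nothing.

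Klk1b27 and Klk1b24 had the same layout. Klk1b27 had 42.6, 42.1 and 4.12 CPM in 3NC, 1.33 to 3.48 CPM in the knockdown group, 37.9 to 50.4 CPM in 5NC and 6.12 to 23.6 CPM in the overexpression group (-2.55 ± 0.57, adjusted p = 0.144). Klk1b24 had 33.4, 32.9 and 1.96 CPM in 3NC, 2.19 to 4.05 CPM in the knockdown group, 32.3 to 34.5 CPM in 5NC and 9.53 to 16.7 CPM in the overexpression group (-2.03 ± 0.53, adjusted p = 0.18). In both, the lone low control was again 3NC replicate 3, and without it Klk1b27 was at -2.69 (adjusted p = 0.0297) and Klk1b24 at -2.20 (adjusted p = 0.0283). Since the library left out was the only low control, these passes support nothing either. Klk1b8, of the same cluster, stood at 44.4 to 62.5 CPM in the controls and 39.0 to 59.4 CPM in the lineages (-0.19 ± 0.11, adjusted p = 0.454). Klk1b24 and Klk1b22 (-2.40 ± 0.66) and Klk1 (-0.56 ± 0.18), named here after their values were seen, did not pass in edgeR's test with all libraries. DESeq2 on all libraries called Klk1b21 (adjusted p = 0.00201), Klk1b27 (0.00322), Klk1b22 (0.00764) and Klk1b24 (0.0263) but not Klk1, so these calls rested on the tool.

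The start regions of Klk1b21, Klk1b27 and Klk1b24 are shown because they are close copies of each other, so their counts may share reads, with that of Klk1b8 for comparison. The windows run from 250 bases before to 50 bases after the gene start (RefSeq, GRCm38.p6, plus strand), as the RefSeq promoter set places it, and capitals mark the longest stretch, 89 bases, that is identical in Klk1b21, Klk1b27 and Klk1b24. The windows of Klk1b22 and Klk1, both also among the 6 lower genes, and of Klk1b8 do not hold that stretch.
Klk1b21, chr7:44102042-44102341: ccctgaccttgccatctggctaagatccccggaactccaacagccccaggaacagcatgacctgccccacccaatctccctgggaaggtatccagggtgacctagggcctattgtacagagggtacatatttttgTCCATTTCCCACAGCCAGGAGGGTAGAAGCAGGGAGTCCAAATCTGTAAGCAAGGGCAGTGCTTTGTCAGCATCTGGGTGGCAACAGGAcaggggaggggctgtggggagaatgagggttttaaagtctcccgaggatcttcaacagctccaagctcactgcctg
Klk1b27, chr7:44052040-44052339: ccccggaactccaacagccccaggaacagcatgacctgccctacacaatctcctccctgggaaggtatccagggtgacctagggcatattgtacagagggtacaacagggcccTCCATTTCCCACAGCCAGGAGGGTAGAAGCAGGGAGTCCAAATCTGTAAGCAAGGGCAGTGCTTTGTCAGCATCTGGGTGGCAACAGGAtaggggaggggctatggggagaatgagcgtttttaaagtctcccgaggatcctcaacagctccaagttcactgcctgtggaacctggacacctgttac
Klk1b24, chr7:44187986-44188285: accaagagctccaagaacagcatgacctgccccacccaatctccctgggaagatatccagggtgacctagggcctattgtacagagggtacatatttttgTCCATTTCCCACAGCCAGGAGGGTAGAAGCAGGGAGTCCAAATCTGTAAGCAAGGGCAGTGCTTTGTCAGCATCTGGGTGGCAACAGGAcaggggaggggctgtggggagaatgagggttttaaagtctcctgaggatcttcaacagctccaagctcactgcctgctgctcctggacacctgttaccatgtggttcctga
Klk1b8, chr7:43950416-43950715: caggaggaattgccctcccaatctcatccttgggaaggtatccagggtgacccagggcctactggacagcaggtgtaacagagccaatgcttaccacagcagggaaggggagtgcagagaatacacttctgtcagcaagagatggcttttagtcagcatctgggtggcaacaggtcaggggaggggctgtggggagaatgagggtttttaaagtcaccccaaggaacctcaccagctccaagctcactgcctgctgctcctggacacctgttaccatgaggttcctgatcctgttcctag

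Aligned over their overlap, the Klk1b21 window was 97.7% identical to that of Klk1b24 and 92.8% to that of Klk1b27. It was 79.2% identical to that of Klk1b22, 79.6% to that of Klk1 and 79.9% to that of Klk1b8. Klk1b22, with a log2 difference of -2.40, was thus no closer to it in this window than Klk1b8, with -0.19. The near-identity of Klk1b21, Klk1b27 and Klk1b24 may extend into the transcripts, so reads could have been split between these copies and the counts of single members are uncertain. The letters CAAGGTCA, a site bound by the steroidogenic factor NR5A1, were searched on both strands. They occurred in 2 of the 14 kallikrein windows, those of Klk1 and Klk1b21, and in 1.56% of all 32851 promoter windows. In Klk1b21 they begin 247 bases before the gene start on the minus strand, and the windows of Klk1b27 and Klk1b24 do not hold them. The start used for Klk1b21 lies inside the span annotated for that gene (chr7:44004616-44106583), so it is 1 of its possible starts. That span also holds all of Klk1b26 and Klk1b27, and the part of this overlap in the counts was not tested.

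**Figure D3:**
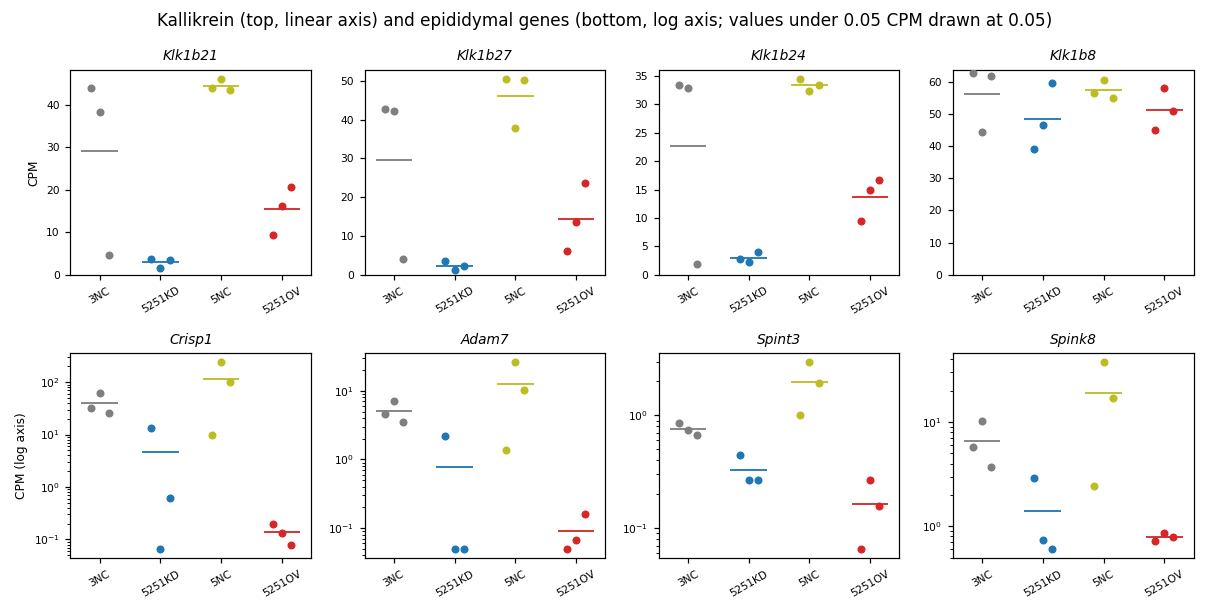
The top row gives 4 kallikrein genes on a linear axis and the bottom row 4 epididymal genes on a log axis, with a point for each library, a line at each group mean and values under 0.05 CPM drawn at 0.05. In the top row 3NC replicate 3 lies with the lineages for Klk1b21, Klk1b27 and Klk1b24, and in the bottom row 5NC replicate 2 is the highest control and knockdown replicate 1 the highest lineage library.

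The other Leydig cell genes did not share one direction. Of 20 tested, 1 was higher (Cyp21a1, above) and 3 lower at an unadjusted p under 0.05 (5% and 15%, beside 7.66% and 6.8% over all genes), and the median was -0.08. Fdx1, the ferredoxin that feeds electrons to mitochondrial steroid enzymes, stood at 35.0 to 51.6 CPM in the controls and 32.6 to 40.9 CPM in the lineages (-0.33 ± 0.09, adjusted p = 0.196). Cyp17a1, which makes androgen precursors, differed by -1.17 in LV3 (309 to 747 CPM in 3NC, 183 to 309 CPM in the knockdown group) and by -0.13 in LV5 (484 to 751 CPM in 5NC, 385 to 732 CPM in the overexpression group). Here too 3NC replicate 3 was the lowest of its group, as it was for Star and Cyp11a1, and the part of Leydig cell RNA in the kallikrein values was not tested. Insl3 had a log2 difference of 0.23 ± 0.12 (adjusted p = 0.398) and Cyp11a1, which starts the chain by cutting the cholesterol side chain, of -0.35 ± 0.29 (adjusted p = 0.6). Srd5a1 (5-alpha-reductase, -0.43 ± 0.13) and Star (the cholesterol carrier, -0.49 ± 0.24) were named after their values were seen and did not pass.

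Most of the tested genes of the epididymis stood higher in the controls. Of 22 listed genes 7 passed the filter on low counts, and 4 of these (Crisp1, Adam7, Rnase9 and Spint3) passed through the controls alone, so they had to be lower in the lineages. Of the 7, 5 were lower at an unadjusted p under 0.05 and 0 higher, beside 6.8% lower over all genes, and the median was -3.33 (-2.21 in LV3 and -4.57 in LV5), but the filter fixed the direction of most of these and the count and median support nothing. Over 27 other settings the median ranged from -3.79 to -0.47, nearest 0 with limma on log2(RPKM + 0.1) without a filter on low values, where 19 members entered and 6 lay under that p. Crisp1, a sperm-coating protein of the epididymis, stood at 32.5, 61.5 and 26.3 CPM in 3NC and 13.2, 0.0665 and 0.608 CPM in the knockdown group. In the LV5 pair it stood at 9.86, 239 and 98.4 CPM in 5NC and 0.197, 0.133 and 0.0793 CPM in the overexpression group. All 6 controls held it at 9.86 CPM or more, whereas 5 of 6 lineage libraries were under 1 CPM and knockdown replicate 1 lay above 1 control. The log2 difference was -4.96 ± 1.2 (adjusted p = 0.161), and without knockdown replicate 1 it was -8.46 with an adjusted p of 0.0182. That library was the only lineage library with Crisp1 above 1 CPM, and the gene entered the test through the controls alone, so passing without it supports nothing.

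Spint3, a protease inhibitor, had 0.675 to 2.95 CPM in the controls and 0.0658 to 0.443 CPM in the lineages (-2.30 ± 0.47, adjusted p = 0.119). Spink8, another protease inhibitor, had 2.43 to 37.5 CPM and 0.608 to 2.91 CPM (-3.33 ± 0.70, adjusted p = 0.124). Adam7 (-4.30) and Rnase9 (-3.999), both epididymal and named after their values were seen, were also lower within each vector. Without knockdown replicate 1 Adam7 was at -7.59 (adjusted p = 0.0182) and Spink8 at -4.06 (adjusted p = 0.0357), and without 3NC replicate 3 Spint3 was at -2.43 (adjusted p = 0.0452). As for Crisp1, these passes support nothing for Adam7 and Spint3, which entered through the controls alone, and knockdown replicate 1 was the highest lineage library for Adam7 and Spink8. The exceptions were Cst8 (0.10) and Rnase10 (0.27). All 5 lower genes were highest in 5NC replicate 2, and among the lineage libraries in knockdown replicate 1. Outside the list, Cuzd1 (8.92 to 86.7 CPM against 2.76 to 8.41 CPM) and Prom2 (1.5 to 17.3 CPM against 0 to 1.45 CPM) were also highest in 5NC replicate 2 and, among the lineages, in knockdown replicate 1, and were named after their values were seen. Both passed without knockdown replicate 1 (-3.28 and -4.94) and without 3NC replicate 3 (-3.04 and -4.11), but Prom2 entered the test through the controls alone, and the first of these settings leaves out the highest lineage library of both genes. The summed level of the list was 159 to 449 CPM in the controls and 147 to 184 CPM in the lineages, of which Cst8 alone gave 131 to 172 and 137 to 177 CPM. The part of attached epididymis in these differences was not tested.

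Genes of round and elongating spermatids were mostly on the higher side. In the round spermatid list 12 of 28 tested genes were higher at an unadjusted p under 0.05 and 1 was lower, beside 7.66% and 6.8% over all genes, and the median was 0.18 (0.08 in LV3, 0.25 in LV5). In the list of elongating spermatids and the sperm tail 7 of 26 were higher and 0 lower, with a median of 0.12 (0.04 in LV3, 0.19 in LV5). The members of a list share their libraries and are not replicates. The summed CPM of the round spermatid list was lowest in 3NC replicate 2 (4867, against 5232 to 6478 in the other controls), and knockdown replicate 1 was the lowest of the lineages (5575, against 5767 to 6463), so the leukocyte-rich libraries were the low ones in both arms. Without both, 10 of 28 genes of that list and 7 of 26 of the elongating list lay under that p in either direction, with medians of 0.18 and 0.13, and the part of other cells in these values was not tested. With 1 library left out at a time, the count in the round spermatid list ranged from 5 to 16 of 28 in either direction, lowest without overexpression replicate 1 or 2 and highest without 3NC replicate 3. The shares of 7.66% and 6.8% belong to the fit with all libraries, so the counts with libraries left out cannot be read against them.

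With all libraries no spermatid gene passed in edgeR's test, while DESeq2 called Sun5 (adjusted p = 0.0199). Without 3NC replicate 3 Sun5 (0.45) and Spag6 (0.48) passed in edgeR's test, as did Catsper3 (0.39) and Izumo1 (0.35) of the round spermatid list. Sun5, which couples the sperm tail to the head, stood at 58.1 to 86.2 CPM in the controls and 74.7 to 93.0 CPM in the lineages (0.37 ± 0.09, adjusted p = 0.163). Spag6, a protein of the sperm axoneme, stood at 102 to 169 CPM and 129 to 167 CPM (0.36 ± 0.11, adjusted p = 0.202). For Spag6 the overlap came from 3NC replicate 3 alone, and for Sun5 from 3NC replicates 1 and 3. Passing without 3NC replicate 3 therefore supports nothing for Sun5 and Spag6. Odf1, a protein of the outer dense fibres of the tail, had a difference of 0.43 ± 0.13 (adjusted p = 0.211), Odf3 of 0.48 ± 0.14 (adjusted p = 0.202) and Tekt2, a tektin of the tail microtubules, of 0.30 ± 0.09 (adjusted p = 0.2). Members named for their high CPM were closer to 0, with Prm2 at 0.12 ± 0.10 (adjusted p = 0.595), Tnp1 (a transition protein) at -0.14 ± 0.10 (adjusted p = 0.537) and Tssk2 (a testis-specific kinase) at 0.18 ± 0.10 (adjusted p = 0.442).

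Meiotic and spermatogonial genes had no common direction. Of 30 meiosis genes 3 were higher and 2 lower at an unadjusted p under 0.05, with a median of -0.04. Rec8, the meiotic cohesin subunit, stood at 37.4 to 62.9 CPM in the controls and 58.1 to 77.2 CPM in the lineages (0.44 ± 0.10, adjusted p = 0.159). Spo11, which makes the DNA breaks that start recombination, stood at 43.2 to 66.0 CPM and 39.2 to 46.4 CPM (-0.33 ± 0.08, adjusted p = 0.17). Each was separate within both vectors. Sycp3, of the synaptonemal complex, had a difference of -0.16 ± 0.09 (adjusted p = 0.437). Of 16 spermatogonial genes 0 were higher and 2 lower, Lin28a (-0.52 ± 0.16, adjusted p = 0.211) and Stra8 (-0.34 ± 0.12, adjusted p = 0.239), the RNA-binding stem cell factor and the gene that retinoic acid induces before meiosis. In the piRNA list of 19 genes 1 was higher, Tdrd1 (0.17 ± 0.06), and 0 lower, with a median of 0.03.

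Junction genes, which the study examined, went both ways. In the adhesion list of 27 tested genes 2 were higher and 5 lower at an unadjusted p under 0.05 (7.41% and 18.5%, beside 7.66% and 6.8% over all genes, median -0.10, of which Dsg2, Icam2 and Itgb4 entered through the controls alone and were not among the 5), led by Itgae and by Cdh2 (N-cadherin, 50.01 to 63.1 CPM in the lineages and 56.7 to 80.5 CPM in the controls, -0.36 ± 0.10, adjusted p = 0.19). Of 17 tight junction genes 2 were higher and 2 lower (median -0.11). The membrane proteins Marveld2 (-0.58 ± 0.21, adjusted p = 0.258) and Ocln (-0.26 ± 0.11, adjusted p = 0.298) were on the lower side. Of 12 gap junction genes 1 was higher and 1 lower (median -0.03). The higher gene was Panx2, a pannexin channel and not a connexin. It had 1.55 to 2.32 CPM in the controls and 2.38 to 4.05 CPM in the lineages without overlap (0.64 ± 0.18, adjusted p = 0.2). The connexin Gja6 was at -0.32 ± 0.11 (adjusted p = 0.222).

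Protein levels were a further subject of the study. In the list of the corresponding 19 genes, 2 were higher and 3 lower at an unadjusted p under 0.05, with a median of -0.12. They were Odf1 (above) and Tjp1 (a tight junction scaffold, 0.13 ± 0.06, adjusted p = 0.334) on the higher side. On the lower side were Cadm2 (an adhesion molecule, -0.32 ± 0.13, adjusted p = 0.292), Ocln (above) and Cdh1 (E-cadherin, -0.71 ± 0.30, adjusted p = 0.308). Cdh1 stood at 1.22 to 4.29 CPM in the controls, highest in 5NC replicate 2, and at 1.13 to 1.77 CPM in the lineages. Gja1, the main connexin of the barrier, was at -0.06 ± 0.06 (adjusted p = 0.678).

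**Figure D4:**
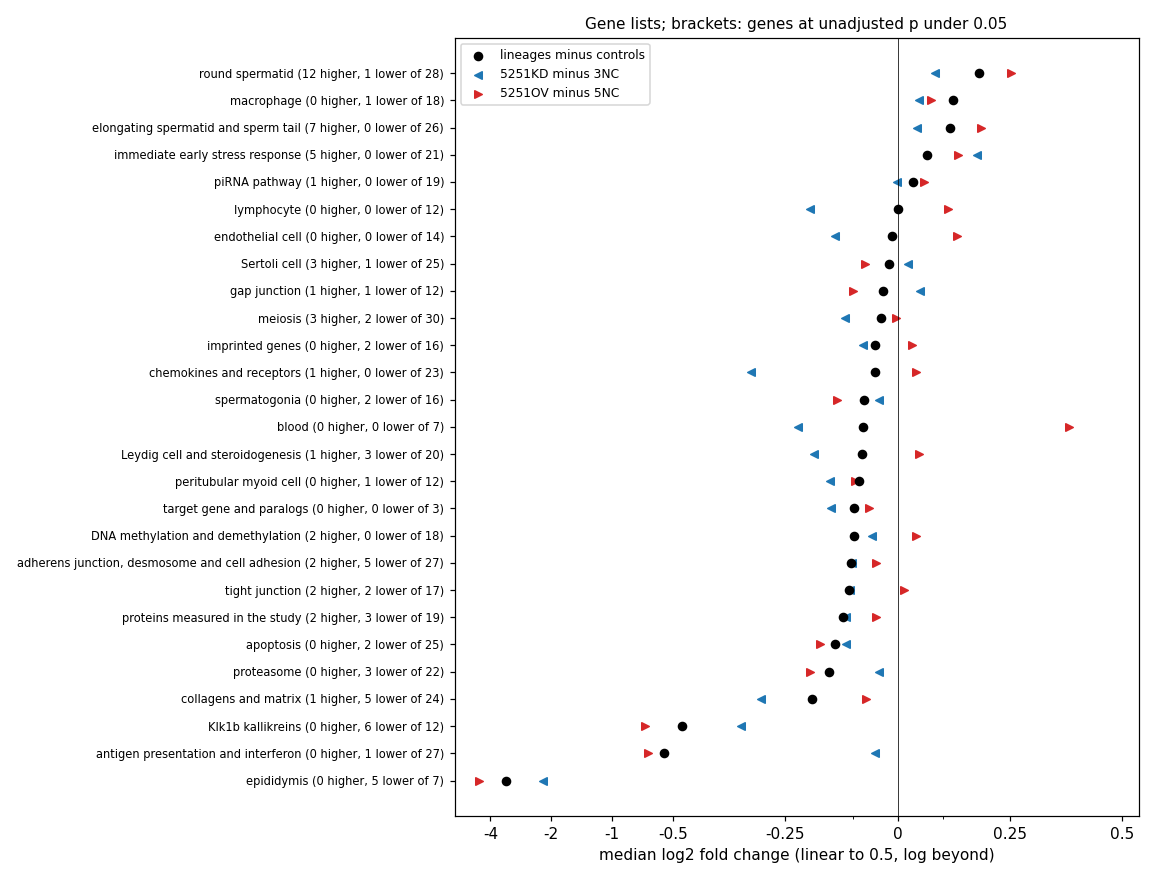
For each of the 27 gene lists the median log2 fold change is drawn on an axis that is linear to 0.5 and logarithmic beyond, for the pooled comparison (black) and for each vector (blue and red), and brackets give the genes at an unadjusted p under 0.05 of those tested. Round spermatid genes lie at 0.18, kallikreins at -0.48 and epididymal genes at -3.33, and in these lists both vectors lie on the same side. For the epididymal list the filter on low counts fixed the direction of most genes, so its medians support nothing.

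Somatic lists other than these stood near 0 or followed the leukocyte-rich libraries. Of 25 Sertoli cell genes 3 were higher and 1 lower (median -0.02). Cst9, a cystatin of Sertoli cells, had 39.4 to 66.1 CPM in 3NC and 63.4 to 73.0 CPM in the knockdown group, but only 7.99 to 11.7 CPM in 5NC against 23.9 to 53.9 CPM in the overexpression group (1.18 ± 0.29, adjusted p = 0.163). The controls of the 2 vectors thus differed from each other. Wt1, the Sertoli transcription factor, was at -0.32 ± 0.11 (adjusted p = 0.222). Of 12 peritubular myoid genes 0 were higher and 1 lower (Cnn1, -0.48 ± 0.17, median -0.09), and of 14 endothelial genes 0 reached that p in either direction (median -0.01).

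The macrophage list held 0 higher and 1 lower of 18 (Pf4, -1.04 ± 0.36, median 0.12), the lymphocyte list 0 and 0 of 12 (median -0.00042) and the blood list 0 and 0 of 7 (median -0.08). The list of chemokines and their receptors held 1 higher and 0 lower of 23 (Cxcl13, 3.85 ± 1.1, median -0.05), and Cxcl13 was highest in knockdown replicate 1. Antigen presentation and interferon genes had a median of -0.55 with 1 of 27 lower (H2-Eb1, -1.50 ± 0.65) and 0 higher, but that median was -0.19 without 3NC replicate 2 and knockdown replicate 1 and 0.37 without 3NC replicate 2 alone. The direction of the immune lists therefore depended on single libraries.

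Of 21 tested immediate early and stress genes 5 were higher and 0 lower at an unadjusted p under 0.05 (23.8% higher, beside 7.66% over all genes, median 0.06). Egr3, an early growth response factor, stood at 14.5 to 25.3 CPM in the controls and 20.9 to 34.4 CPM in the lineages (0.60 ± 0.13, adjusted p = 0.135), and Klf4 at 80.6 to 131 and 103 to 149 CPM (0.42 ± 0.12, adjusted p = 0.199). Among 18 genes of DNA methylation 2 were higher (11.1%) and 0 lower (median -0.10). They were Dnmt3l, the cofactor of germline methylation, with 5.42 to 8.24 CPM in the controls and 8.49 to 12.2 CPM in the lineages and no overlap (0.42 ± 0.13, adjusted p = 0.211), and Zfp57, which guards imprints (0.19 ± 0.06, adjusted p = 0.215). Of 16 imprinted genes 0 were higher and 2 lower, Grb10 and Gnas (-0.16 and -0.26, median -0.05). Collagens and matrix genes had 1 higher and 5 lower of 24 (20.8% lower, beside 6.8% over all genes, median -0.19), led by Postn (-0.35) and Col4a3 (-0.57). Their summed level was 1831 CPM in 3NC replicate 2, a leukocyte-rich library, against 646 to 1066 CPM in the other controls and 663 to 1055 CPM in the lineages. Over other settings the median ranged from -0.30 to -0.07, nearest 0 without that library, where 4 genes lay under that p in either direction. The proteasome list had 0 higher and 3 lower of 22 (13.6%, Psma3 -0.17, Psma4 -0.26, median -0.15) and the apoptosis list 0 higher and 2 lower of 25 (Bcl2l2 -0.16, Casp6 -0.32, median -0.14). Purb and its 2 paralogs had 0 in either direction (median -0.10).

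Neighbouring genes on the X chromosome, looked at after Gm15128 had been seen among the leading genes, had pooled log2 differences of both signs over 1668 kb (chrX:147470375-149138152). None of them passed in the pooled edgeR comparison with all libraries. Of the 8 tested genes there, 1 was higher (Gm15128 itself) and 4 lower at an unadjusted p under 0.05, beside 7.66% and 6.8% over all genes. Gm15114, among the 4, adds nothing to that count, since the filter fixed its direction. Gm15114, which passed the filter on low counts through the controls alone, had 3.77, 4.29 and 5.61 CPM in 3NC and 5.99, 5.91 and 6.80 CPM in 5NC, but 0 in all 3 libraries of the knockdown group and 2.43, 0.133 and 0 CPM in the overexpression group (pooled -3.98, adjusted p = 0.124, and -7.20 with an adjusted p of 0.000136 without overexpression replicate 1). The library left out there was the only lineage library above 0.133 CPM, so that pass supports nothing. Gm15127 had 5.72 to 8.37 CPM in the controls and 0.798 to 4.73 CPM in the lineages (-1.68 ± 0.34, adjusted p = 0.114). Neither gene overlapped between the arms. Luzp4 (-0.92 ± 0.16, adjusted p = 0.0901) and Gm15107 (-1.01 ± 0.35, adjusted p = 0.222) were on the lower side as well, against 1.54 for Gm15128. Several of these genes have predicted-gene names and may have near-identical copies, so reads may be shared between copies and single counts are uncertain.

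**Figure D5:**
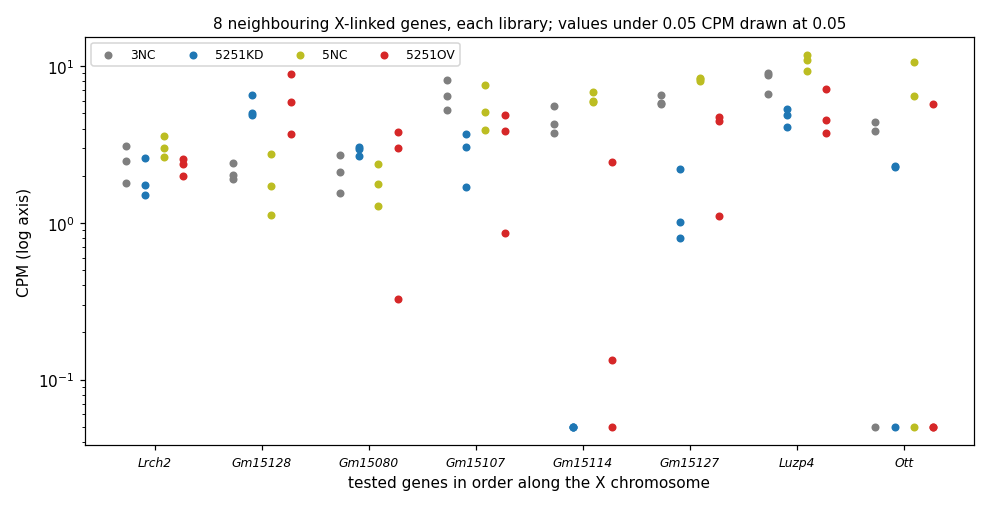
The 8 tested genes of the X-linked stretch are drawn in chromosomal order with CPM on a log axis, a point for each library coloured by group and values under 0.05 CPM drawn at 0.05. Gm15128 is higher in the knockdown and overexpression libraries, and Gm15114 and Gm15127 lie below all controls in each of the 6.

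A similar look around 9530057J20Rik, also made after its value was seen, covered 8 tested genes over 1785 kb of chromosome 8 (chr8:19160244-20944748), of which 3, 9530057J20Rik included, were higher and 1 lower (AY761185) at an unadjusted p under 0.05, beside 7.66% and 6.8% over all genes. The other higher genes were Gm21119 (0.42 ± 0.17) and Gm21811 (0.29 ± 0.13), beside 0.73 at 9530057J20Rik. AY761185 passed the filter on low counts through the controls alone, so its direction was fixed and it adds nothing to the lower count.

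The effects of the 2 vectors differed from each other in 4 genes at an adjusted p of 0.05 (0.0244%), and in 758 (4.63%) at an unadjusted p under 0.05. In Gm40011 the 3NC, the knockdown group and the overexpression group libraries held 5.63 to 11.1 CPM while 5NC held 0.0624 to 0.281 CPM. A530064D06Rik had the same layout, with 0 to 0.125 CPM in 5NC and 1.86 to 5.89 CPM elsewhere, and so did the haemoglobin gene Hbb-bs, with 0 to 0.0716 CPM in 5NC and 3.22 to 14.1 CPM elsewhere. In these 3 genes it was the control of the LV5 vector, not a lineage, that stood apart. Gm6121 on the X chromosome was instead low in the overexpression group (1.19 to 1.78 CPM) and at 11.8 to 23.4 CPM in the other 3 groups. None of the leading genes named above was among the 4.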

How the data were processed

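Polyadenylated RNA of F1 testis was sequenced in 12 libraries, 3 in each of 4 groups. Alignment was by the authors with SOAPaligner 2.20, and mm10 is the build in the submitters' processing notes. The authors deposited an estimated count of reads per gene and library, with fractions in 11.6 to 12.6% of the entries, and an RPKM value that the authors computed from it. How they divided reads shared by genes was not given in the sources used here. Columns of group averages were not used, nor were 18 columns of samples that the labels do not list.

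Estimated counts were rounded to whole numbers. Of 20788 genes, 16388 passed edgeR's filterByExpr over the 4 groups. The lineages were compared with the controls by edgeR 4.0.16 (R 4.3.3) quasi-likelihood tests with TMM scaling and the vector as a term, and p-values were Benjamini-Hochberg adjusted over all tested genes at a threshold of 0.05. A fit of the 4 groups gave the effect in each vector, the larger of the 2 p-values for a shared effect, and the difference between the vectors. CPM values were TMM-scaled. Purb was tested by a two-sided exact permutation within vectors. Libraries held 12719699 to 15771655 estimated reads, and replicates differed beyond sampling noise (chi-square per degree of freedom at least 3.44), so none was counted as a duplicate. The tests were checked on simulated data.

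The members and the 27 gene lists were chosen with earlier results of these data known. Named genes were the 6 higher and 6 lower with the smallest p, the 6 with the smallest larger p, the 2 with the smallest p and the 2 with the highest mean CPM of a list, the genes of the measured proteins, and Purb, less those with nothing to describe. Adam7, Rnase9, the Klk1b genes other than Klk1b21, Klk1b27 and Klk1b8, Klk1, Dsg2, Icam2, Itgb4, Srd5a1, Star, Cuzd1, Prom2, Catsper3, Izumo1, the X-linked and chromosome 8 neighbours and the 4 genes that differed between the vectors were among those added after their values were seen. Promoters were taken from RefSeq (GRCm38.p6) and hairpins were matched to GENCODE vM21 transcripts. Gene identifiers matched RefSeq for 20630 genes (99.2%). Alternatives used limma 3.58.1, DESeq2 1.42.0, other scalings and filters, and left-out libraries. Some results are not reported here.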

Additional observations from a re-analysis of the deposited data

Results flagged for a closer look

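In 228 sets of 6 libraries (87 genes and 27 list sums, lineage and control arms apart), the highest or lowest library was tested for a gap to its nearest neighbour, as a share of the whole range, above Dixon's critical value. Chance alone sets apart about 1 in 20 such sets. The values below are that ratio, and no explanation was weighed.

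Among the epididymal genes, knockdown replicate 1 stood above the other lineage libraries for Crisp1 (0.959), Adam7 (0.928), Spink8 (0.888) and Rnase9 (0.749), and outside that list for Cuzd1 (0.787) and Prom2 (0.768), and 5NC replicate 2 stood above the other controls for Cuzd1 (0.668) and Adam7 (0.642). AY761185 had the same pair of libraries apart (0.644 in each arm). For the kallikreins 3NC replicate 3 was the low control, with 0.932 for Klk1b24, 0.814 for Klk1b21 and 0.73 for Klk1b27. The same library was the high control for Gm1993 (0.817), Spag6 (0.677) and Gm6121 (0.65).

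Immune list sums set knockdown replicate 1 apart from the other lineage libraries and 3NC replicate 2 from the other controls, with 0.975 and 0.956 for chemokines and receptors, 0.929 and 0.912 for macrophage genes, 0.904 and 0.96 for lymphocyte genes, 0.893 and 0.806 for antigen presentation and interferon genes, and 0.731 and 0.678 for apoptosis genes. Cxcl13 gave 0.965 and 0.823 in the same libraries, and H2-Eb1 0.904 in 3NC replicate 2. That control was also highest for the Sertoli cell sum (0.696) and the collagen and matrix sum (0.645).

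In overexpression replicate 3 the meiosis sum was high (0.779), the Sertoli cell sum low (0.706), and Col4a3 (0.765) and Zfp661 (0.672) high. In overexpression replicate 1 Gm15114 (0.945) and the blood sum (0.636) were high. Casp6 was high in overexpression replicate 2 (0.75), and Grb10 was low in knockdown replicate 3 (0.656).

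The effects of the vectors differed in 4 genes by the test of the difference itself (edgeR's quasi-likelihood test). The knockdown effect minus the overexpression effect was 3.23 on the log2 scale for Gm6121, -5.33 for Gm40011, -5.32 for A530064D06Rik and -9.51 for Hbb-bs, where the last depends on the prior count because 5NC held 1 read in all.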

How the results depend on the processing

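The pooled count of 0 genes depended on the method. It was 6 (4 higher, 2 lower) with edgeR's robust option, 2 with its bias-adjusted dispersion, 1 on total counts, 22 (14 and 8) as the mean of the within-vector effects, 7 with limma on log2 CPM, 3 on log2(RPKM + 0.1) or log2(RPKM + 1), 4 without the RPKM filter and 254 (138 and 116) with DESeq2. Without 3NC replicate 2 and knockdown replicate 1 it was 33 (15 and 18), and 7 (2 and 5) when 5NC replicate 2 was left out too, a setting chosen after seeing the data. With 1 library left out it ranged from 0 to 184, with 184 (146 higher, 38 lower) without 3NC replicate 3 and 26 without knockdown replicate 1. The cause was not tested. The shared count was 2 with DESeq2 and 0 otherwise. The 4 genes that differed between the vectors became 42 (14 and 28) with DESeq2 and ranged from 2 (without 5NC replicate 2) to 10 (without 3NC replicate 3) with 1 library left out. With the replicate number as a block the pooled count was 0 and the difference count 2. The numbers did not pair the libraries (correlations of deviations -0.739 to 0.471). On RPKM the same-direction non-overlapping genes were 363 (170 above, 193 below), and on total counts the opposite ones were 85 (53 and 32). Of the named genes 1 changed sign, Hbb-bs without the vector term (-0.0198, beside 1.19). List medians near 0 crossed it in some settings, with the widest ranges for chemokines (-0.62 to 0.93), antigen presentation (-1.26 to 0.37), lymphocyte (-0.41 to 0.68) and macrophage genes (-0.32 to 0.65), while the medians of kallikreins (-0.57 to -0.37) and round spermatid genes (0.15 to 0.25) kept their sign. Depth limits genes with few reads, such as AY761185 with 4 reads in the lineages.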
